A study of Mus musculus with 6 samples.

Results

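The genes described here encode the proteins of the cytosolic ribosome. They were taken from the annotation of the array rows: a row had to carry a single gene symbol that was Rplp0, Rplp1, Rplp2, Rpsa, Rps3a1, Rps4x, or Rpl or Rps followed by a number with at most a final a. Where a gene had several such rows, the row with the highest mean over the 6 arrays stood for it. This gave 54 genes of the 19938 tested, 33 of the large (60S) and 21 of the small (40S) subunit. Of 77 mouse ribosomal protein genes whose names fit the rule, 23 were not described: 16, Rpl11 and Rps26 among them, had only rows with several symbols, and 7 were not analysed here. Fau, which encodes a ribosomal protein fused to a ubiquitin-like domain, lies outside the name rule.

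The samples were GFP-positive cells sorted from the spleens of mice that had received C57BL/6 fetal liver cells (E14.5) carrying AML1-ETO9a, a shortened product of the t(8;21) translocation that drives leukaemia in mice. The donor cells were AES wildtype or carried floxed Aes alleles, and the recipients were given tamoxifen 4 weeks after transplantation, per the labels. There were 3 AES wildtype and 3 AES knockout samples, 1 array each. Wildtype cells were collected after the mouse had died of leukaemia, whereas knockout cells were collected when the experiment ended, so genotype and time of collection cannot be told apart. The labels do not name the Cre driver and give no animal for any sample, so each p-value reflects only how far these particular samples spread, which may be technical.

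A eukaryotic ribosome joins a small subunit, which reads the mRNA, to a large subunit, which forms the peptide bond and carries the exit tunnel of the new chain. Ribosomal proteins are made in matching amounts. Their mRNAs are among the most abundant of growing cells and begin with a terminal oligopyrimidine tract, a run of C and U bases through which mTORC1 and LARP1 regulate their translation. An array measures the mRNA and not its translation. In people, loss of a copy of several of these genes causes Diamond-Blackfan anaemia, and free RPL5 and RPL11 bind MDM2 and raise p53.

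The initiation region is shown for 6 genes among those with the smallest unadjusted p in either direction of the knockout comparison described below, which have an entry in the RefSeq promoter table (GRCm38.p6), the first 4 lower and the last 2 higher in knockout cells. Each window holds 15 bases before and 15 bases from the annotated start, 5′ to 3′ on the gene's strand. The longest run of C or T, or the first of equally long runs, is in capitals.
Rpl14: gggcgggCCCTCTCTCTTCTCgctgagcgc
Rpl12: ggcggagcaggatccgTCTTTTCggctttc
Rplp2: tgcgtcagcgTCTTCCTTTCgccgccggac
Rpl27a: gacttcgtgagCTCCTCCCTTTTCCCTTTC
Rps3a1: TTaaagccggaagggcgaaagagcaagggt
Rps7: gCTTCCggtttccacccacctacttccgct

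The windows lie at chr9:120571502-120571531 on the plus strand for Rpl14, chr2:32961697-32961726 (plus) for Rpl12, chr7:141447636-141447665 (plus) for Rplp2 and chr7:109519180-109519209 (plus) for Rpl27a. Those of Rps3a1 and Rps7 lie at chr3:86142654-86142683 and chr12:28635939-28635968, both on the minus strand. Within the window the longest pyrimidine run had 14 bases in Rpl14, 7 in Rpl12, 10 in Rplp2, 19 in Rpl27a, 2 in Rps3a1 and 5 in Rps7. The run of Rpl27a reached the last base of the window, so it may be longer. Rps3a1 and Rps7 held further runs of the same length. An annotated start can miss the base at which transcription begins. Of the 54 genes, 43 had an entry, and 15 of these (34.9%) held a run of at least 8 pyrimidines in the window, against 13.9% of 27025 genes with an entry. The median log2 difference between knockout and wildtype was -0.03 over those 15 genes and 0.02 over the other 28.

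Short motifs were then searched on both strands of the whole 300-base promoter of the same 43 genes. The core of ETS-family sites, CGGAAG, stood in 31 of the 43 promoters (72.1%), against 18.8% of all genes. The GC box bound by Sp1-type factors, GGGCGG, stood in 26 (60.5%, against 38.2%), and its matches can overlap those of the ETS core by 3 bases. The TATA box that positions the polymerase at many tissue-specific genes, searched as TATAAA, stood in 5 (11.6%, against 15.7%). Part of the motif of the factor YY1, searched as AAGATGG, stood in 4 (9.3%, against 7.3%), and the NRF1 palindrome in 2 (4.7%, against 1.1%). A match is a string of letters, not a bound site, and no binding was measured.

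The targeted gene checked the labels. Aes, listed as Tle5, had values of 11.13, 11.10 and 11.11 in wildtype and 8.80, 9.33 and 8.86 in knockout cells, and the groups did not overlap. That difference, -2.12, also missed the threshold of the test across all genes (limma adjusted p = 0.23). Over all rows with values, the median log2 value of an array ran from 6.47 to 6.65, and the arrays have no count of reads, so their number limits the precision. Among 10 listed markers of myeloid blasts, the receptor Kit was at 10.60 to 11.80 and the transcription factor Spi1 at 10.47 to 10.93. The progenitor marker Cd34 ran from 5.33 to 9.87 and the granule enzyme Mpo from 6.08 to 10.08. Elane, Ctsg and Prtn3 ran from 6.24 to 9.25, 5.42 to 9.39 and 6.43 to 8.44. Itgam ran from 5.81 to 7.56, and Cebpa stayed near the array medians, at 6.35 to 6.76. Ptprc, the pan-leukocyte antigen CD45, was lowest at 5.76 on knockout replicate 1, below that array's median.

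Ribosomal protein mRNAs differed little between AES knockout and wildtype cells. The log2 differences, knockout minus wildtype, ran from -0.24 for Rpl14 to 0.18 for Rps29, so that the largest was 1.18-fold. Leaving out an array moved these limits, to -0.38 for Rpl12 without knockout replicate 1 and 0.36 for Rps29 without knockout replicate 2. The median was 0.010, against 0.003 over all genes, and 46 of the 54 genes lay within 0.1 of 0 in either direction. Beyond 0.1 lay 8 genes, 14.8%, where 44.3% of all genes did. Beyond 0.2 lay 2, Rpl14 and Rpl12, or 3.7%, against 19.6%, and beyond 0.5 lay 0, against 4.78%. With limma and Benjamini-Hochberg adjustment over all genes, 0 of the 54 genes passed an adjusted p of 0.05, as did 0% of all genes. At an unadjusted p under 0.05 stood 1 gene, Rpl30, or 1.85%, against 2.53% of all genes. Rpl30 was lower in knockout cells, as were 1.12% of all genes at that p, and 0 of the 54 were higher, against 1.41%.

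A difference that misses the threshold is not shown to be absent, so the intervals matter. The 95% interval of the difference had a median half-width of 0.21, a factor of 1.15, and included 0 for 53 of the 54 genes. It lay wholly within 0.3 of 0 for 41 genes and within 0.5 for 51. The widest intervals reached -0.60, for Rpl12, and 0.60, for Rps29.

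Lower and higher means were near balance. In knockout cells 24 genes had lower means, 44.4%, against 49.1% of all genes, and 30 had higher means, 55.6%, against 50.9%. This balance moved with scaling: with each array centred on its median 15 genes were lower (median 0.041), and with quantile normalization 32 were lower (median -0.006). All genes shifted too: 39% were lower with centring (median 0.033) and 44.8% with quantile normalization (median 0.015). The groups did not overlap for 3 genes, Rpl27a, Rpl30 and Rpl19, or 5.56%, against 7.15% of all genes. Rpl27a and Rpl30 were lower (3.7%, against 3.51%) and Rpl19 higher (1.85%, against 3.65%).

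**Figure D1:**
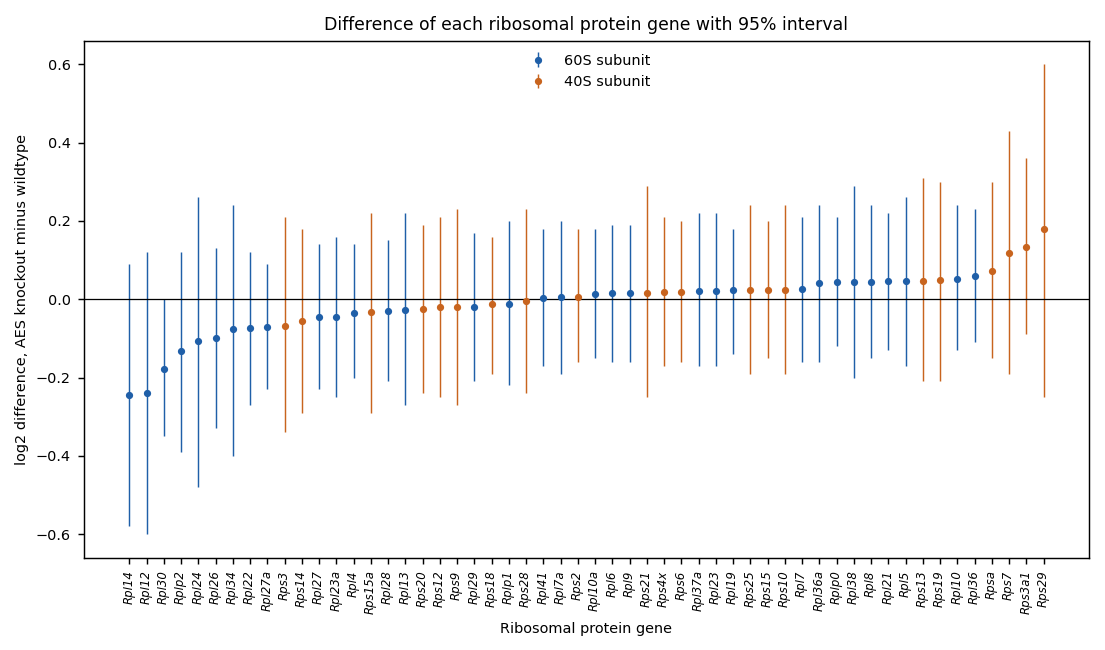
Log2 difference, AES knockout minus wildtype, for the 54 ribosomal protein genes in order of the difference; bars are limma 95% intervals and colours give the subunit. The differences run from -0.24 (Rpl14) to 0.18 (Rps29), and 53 intervals include 0.

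The large-subunit proteins are taken first. Rpl30, which sits at the interface between the subunits, had the smallest unadjusted p of the 54 genes. Its values were 9.41, 9.41 and 9.43 in wildtype and 9.18, 9.29 and 9.25 in knockout cells. Every knockout array lay below every wildtype array. The means were 9.42 ± 0.013 and 9.24 ± 0.059 (SD, n = 3 each), a log2 difference of -0.18 (95% interval -0.35 to -0.004, limma unadjusted p = 0.0465, adjusted p = 1.00). An exact two-sided permutation test gave 0.1, the smallest p that 3 against 3 allows.

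Rpl14, a protein of the solvent-exposed side of the large subunit, was at 9.70, 9.66 and 9.51 in wildtype and 9.52, 9.51 and 9.12 in knockout cells (difference -0.24, SE 0.14, limma adjusted p = 1.00). Knockout replicate 3 stood below the other 5 arrays, and without it the difference was -0.11. The groups overlapped. Rpl12, which forms the base of the stalk, was at 9.45, 9.49 and 9.60 in wildtype and 9.55, 9.25 and 9.03 in knockout cells, with the same difference of -0.24 (SE 0.15). Knockout replicate 1 lay within the wildtype range and the other knockout arrays below it. The difference was -0.38 without knockout replicate 1 and -0.12 without knockout replicate 3.

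The stalk recruits the GTPase factors that drive elongation, and its other proteins did not share a direction. Rplp0, the scaffold of the stalk, was at 12.63, 12.66 and 12.64 in wildtype and 12.68, 12.65 and 12.72 in knockout cells. The acidic protein gene Rplp1 was at 13.51, 13.35 and 13.37 against 13.39, 13.48 and 13.33, and its partner Rplp2 at 9.03, 9.06 and 9.16 against 8.82, 9.12 and 8.92. Their differences were 0.04, -0.01 and -0.13, and for each the groups overlapped. The sign of Rplp1 turned with median centring (0.02). Rplp2 was at -0.06 without knockout replicate 1 and -0.21 without knockout replicate 2.

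Rpl27a had the tightest wildtype group of the genes named here. Its values were 12.62, 12.63 and 12.63 in wildtype and 12.54, 12.58 and 12.54 in knockout cells (means 12.63 ± 0.006 and 12.55 ± 0.020, SD, n = 3 each). The groups did not overlap, but the difference was -0.07, or 1.05-fold (limma adjusted p = 1.00). Rpl19, the other large-subunit gene without overlap and higher in knockout cells, differed by 0.02, with values of 12.90, 12.90 and 12.88 against 12.93, 12.91 and 12.92. It was singled out after its values were seen. Some other rows of both genes overlapped. A further row of Rpl19 was at 12.88, 12.90 and 12.88 in wildtype and 12.93, 12.89 and 12.89 in knockout cells. A further row of Rpl27a was at 12.28, 12.15 and 12.14 against 12.04, 12.16 and 12.10. Rpl36 was at 12.99, 12.96 and 12.92 against 12.99, 12.99 and 13.07, a difference of 0.06.

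Rpl5, which carries 5S ribosomal RNA into the large subunit together with Rpl11, was at 12.92, 12.93 and 12.81 in wildtype and 12.91, 12.84 and 13.05 in knockout cells (difference 0.05, 95% interval -0.17 to 0.26). The groups overlapped. Rpl22, a protein lost in some leukaemias, was at 9.04, 9.14 and 9.01 against 9.03, 9.03 and 8.91 (difference -0.07, interval -0.27 to 0.12). Of 10 genes listed for the exit tunnel, 6 were measured. Lower means stood in 5 of the 6, against 49.1% of all genes, and the median over the 6 was -0.06. Rpl26 was at -0.10, with overlapping groups. The list includes Rpl24, at -0.11 and also with overlap, whose place at the tunnel was not checked.

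In the small subunit, 13 of 21 genes had higher means in knockout cells, against 50.9% of all genes, with a median of 0.019. By limma 0 passed the adjusted test, as did 0% of all genes, and 0 stood at an unadjusted p under 0.05, against 2.53%. Under median centring 18 of the 21 were higher, and under quantile normalization 9. In these settings 14.3% and 57.1% of the 21 were lower, against 39% and 44.8% of all genes. Rps29, a zinc-binding protein of the 40S head, had the largest positive difference and the widest spread of the 54 genes. Its values were 11.84, 11.75 and 11.95 in wildtype and 12.24, 11.66 and 12.17 in knockout cells (means 11.85 ± 0.098 and 12.03 ± 0.32, SD, n = 3 each). Knockout replicates 1 and 3 lay above all wildtype arrays and knockout replicate 2 below them, and the difference was 0.18 (interval -0.25 to 0.60, limma adjusted p = 1.00). That difference was 0.07 without knockout replicate 1, 0.11 without knockout replicate 3, 0.36 without knockout replicate 2 and 0.02 with array weights.

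Rps7, a 40S protein that can bind MDM2, was at 12.77, 12.64 and 12.93 in wildtype and 12.97, 12.71 and 13.02 in knockout cells, with knockout replicates 1 and 3 highest. Its difference was 0.12 (interval -0.19 to 0.43). Leaving out wildtype replicate 2 gave 0.05 and leaving out wildtype replicate 3 gave 0.20. The difference was 0.06 when knockout replicate 3 was dropped and 0.21 when knockout replicate 2 was, and 0.05 with array weights. Rps3a1 was at 9.95, 9.82 and 9.75 against 9.89, 9.95 and 10.07 (difference 0.13, SE 0.092), and Rpsa, the 40S protein also known as the laminin receptor, at 12.42, 12.48 and 12.31 against 12.44, 12.40 and 12.59 (difference 0.07). The groups overlapped for each of these genes.

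Other 40S genes known from disease or signalling had smaller differences. Rps6, the substrate of S6 kinases, was at 13.53, 13.57 and 13.55 in wildtype and 13.53, 13.52 and 13.65 in knockout cells, a difference of 0.02 (interval -0.16 to 0.20). Rps19, the gene most often mutated in Diamond-Blackfan anaemia, was at 10.68, 10.68 and 10.44 against 10.73, 10.54 and 10.68 (difference 0.05, interval -0.21 to 0.30). Rps14, whose loss contributes to the anaemia of 5q deletion, was at 12.09, 12.04 and 11.87 against 12.04, 11.89 and 11.90 (difference -0.06, interval -0.29 to 0.18). Of 20 listed Diamond-Blackfan genes, 10 were measured, 5 with lower and 5 with higher means, between -0.10 and 0.18. The X-linked Rpl10, Rpl36a and Rps4x had differences of 0.05, 0.04 and 0.02, and that of Rps4x turned negative with quantile normalization (-0.008).

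The spread within groups was small. The median within-group SD of the 54 genes was 0.077 log2 units, against 0.151 over all genes and 0.205 over the 5207 genes whose 6-array mean was at least 9.02, that of the lowest ribosomal protein gene. For 53 of the 54 genes the SD was below that last median. The comparison was repeated at the top of the scale: among genes with a mean of at least 12, the 34 ribosomal protein genes had a median SD of 0.062 and the 170 others 0.144, with quartiles of 0.082 and 0.220. The sizes of difference had medians of 0.024 and 0.062 in these sets. These comparisons are descriptions, chosen after the values were seen, and how far signal near the top of the scale is compressed was not tested.

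**Figure D2:**
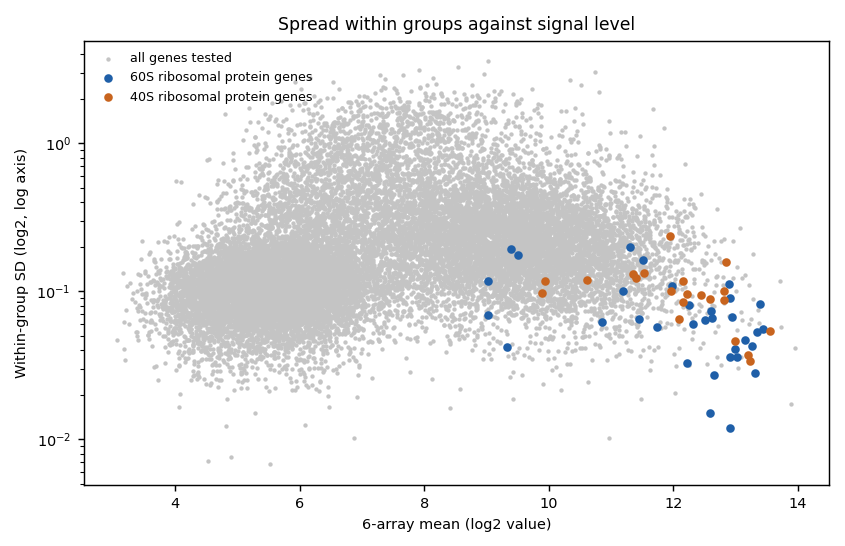
Within-group SD (log2, log axis) against the 6-array mean for all 19938 genes in grey and the ribosomal protein genes in colour. The ribosomal protein genes lie at means of 9.02 to 13.56 and mostly in the lower part of the cloud of genes of like brightness, with a median SD of 0.077.

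Within the set, dimmer rows differed more. Across the 54 genes the 6-array mean correlated with the size of the difference (Pearson r -0.65, Spearman rho -0.53) and with the within-group SD (r -0.46, rho -0.59). These relations run across genes measured on the same arrays and by rows of unlike probes, so they describe rows and do not rank mRNA levels. The genes with the largest negative differences, Rpl14, Rpl12 and Rpl30, all had means under 10.

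The annotation gave many rows to the same ribosomal protein gene. The 54 genes had 209 rows: 16 genes had 1 row and 38 had several, up to 14 for Rps12 and 13 for Rpl23a. Mouse ribosomal protein genes have many processed pseudogenes, near-identical copies of the mRNA in the genome, and which copies a row reads is not known here, so values of these genes are uncertain to that extent. Rows of most of these genes varied together over the 6 arrays, with a median over genes of 0.96 for the median r between rows. The exceptions were Rps2 (-0.56), Rpl23 (0.15), Rps15 (0.34), Rpl19 (0.49) and Rplp0 (0.56). The differences of a gene's rows spanned 0.03 at the median and at most 0.12, for Rpsa.

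In 23 of the 38 genes every row had the same sign. All 14 rows of Rps12 and all 9 of Rpl27a were lower, all 8 of Rps6 and all 9 of Rpl21 were higher, and the 4 rows of Rps29 lay between 0.18 and 0.21. Rows of a gene can share probe sequence and are not independent. Of all 209 rows, 98 were lower, and 1 had an unadjusted p under 0.05, that of Rpl30.

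Genes with a single row and genes with several differed in their medians. Of the 16 single-row genes 12 had lower means, with a median of -0.051, and of the 38 others 12 had lower means, with a median of 0.018. With median centring 10 of the 16 and 5 of the 38 were lower, and with quantile normalization 13 and 19. The single-row genes were also the dimmer ones, with a median 6-array mean of 10.74 against 12.74. The split was made after the values were seen and was not tested.

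**Figure D3:**
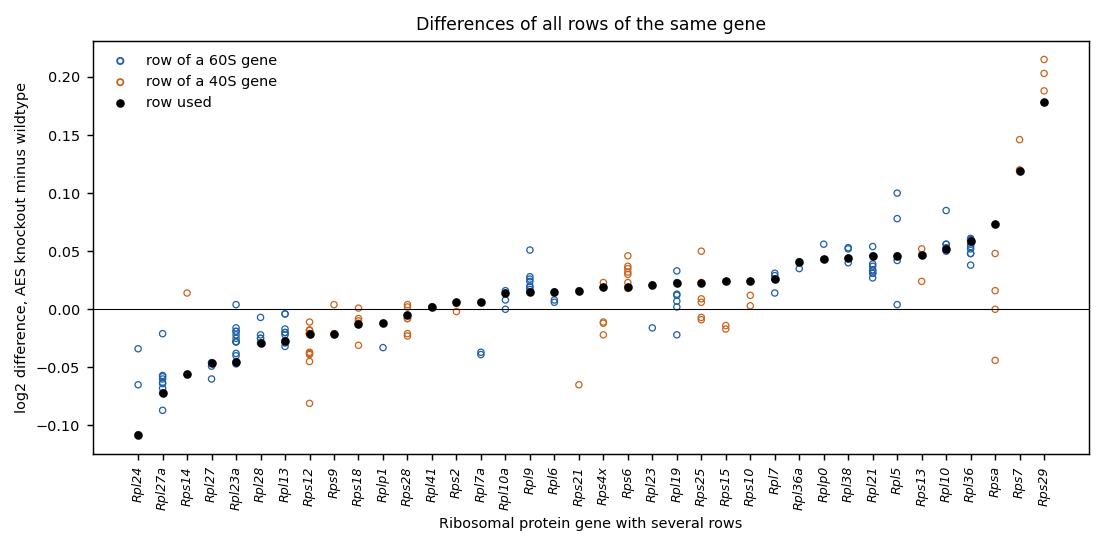
Log2 difference, AES knockout minus wildtype, for every row of the 38 ribosomal protein genes with several rows (open circles, coloured by subunit) and for the row used (black). Rows of a gene lie within 0.12 of each other, and those of Rps29 lie between 0.18 and 0.21.

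The level of the whole set varied between arrays of the same genotype. The mean deviation of the 54 genes from their 6-array means was 0.041, 0.003 and -0.032 on wildtype replicates 1 to 3 and -0.012, -0.031 and 0.031 on knockout replicates 1 to 3. Knockout replicate 3 held the highest value for 25 of the 54 genes (46.3%, against 17.5% of all genes). Among all genes with a mean of at least 9.02 that share was 22.8%. Wildtype replicate 1 held the highest value for 14 (25.9%, against 13.6% of all genes) and knockout replicate 2 for 0 (against 11.1%). Wildtype replicate 3 held the lowest value for 18 (33.3%, against 9.6% of all genes). Without knockout replicate 3, 36 genes had lower means and the median turned to -0.016.

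This order of arrays depends on scaling. Knockout replicate 3 and wildtype replicate 1 also had the highest array medians, 6.65 and 6.62, and knockout replicate 1 the lowest, 6.47. After median centring the mean deviations were -0.018, 0.015 and -0.031 for wildtype and 0.074, 0.019 and -0.059 for knockout replicates 1 to 3. Knockout replicate 3 thereby turned from high to lowest. The part of the array median in the order was not tested beyond this.

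The 54 genes varied only in part together. Over the 1431 pairs the median correlation across the 6 arrays was 0.20, and 32.1% of pairs exceeded 0.5. On knockout replicate 3, Rps13 reached 11.62 against at most 11.39 elsewhere and Rpl38 13.10 against at most 12.89, whereas Rpl14, Rpl12 and Rpl34 had their lowest values there, 9.12, 9.03 and 11.23. With differences this small, the correlations rest on hundredths of a log2 unit and are given as a description.

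Markers of late neutrophils, the end stage of the granulocyte lineage, varied far more than these genes. The 8 late neutrophil markers had mean levels of 9.21, 7.55 and 5.49 in wildtype and 5.37, 9.34 and 9.47 in knockout cells. S100a8, for example, ran from 5.03 to 10.48. The 5 measured erythroid markers had mean levels of 10.66, 9.86 and 9.53 in wildtype and 10.33, 11.20 and 8.84 in knockout cells, with the lowest on knockout replicate 3. Listed T cell markers were also lowest there, with a mean level of 5.8. The macrophage and B cell lists were highest on that array, at 8.19 and 7.31. On wildtype replicate 3 and knockout replicate 1, where the neutrophil markers were lowest, the ribosomal protein genes deviated by -0.032 and -0.012. The part of any of these marker lists in the array differences was not tested. Sample makeup cannot be separated here: fewer cells of a type and less RNA per cell cannot be told apart in bulk RNA.

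**Figure D4:**
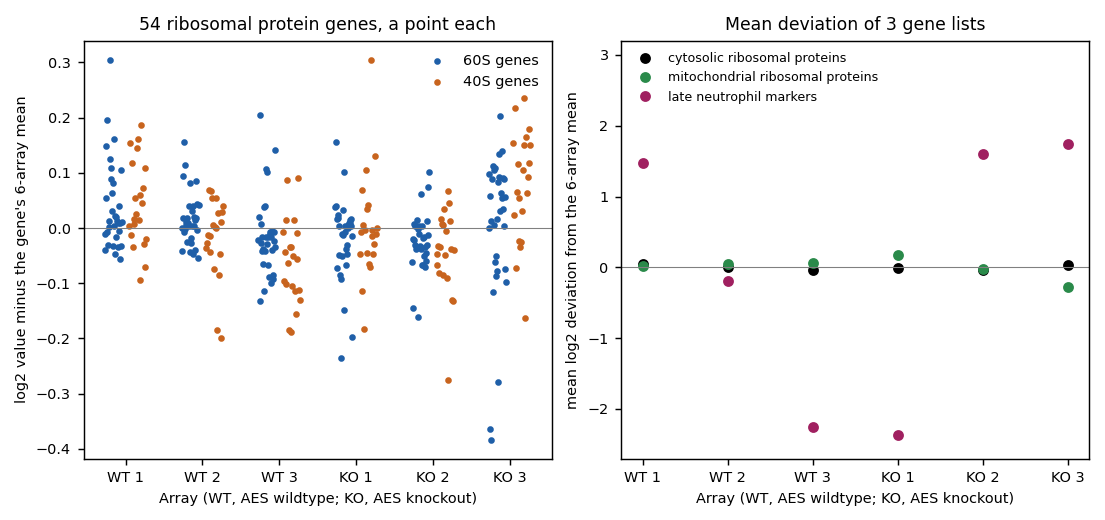
Left, deviation of each of the 54 ribosomal protein genes from its 6-array mean on each array, coloured by subunit; right, mean deviation of the cytosolic and the mitochondrial ribosomal protein genes and of the late neutrophil markers, on a wider axis. The cytosolic set stays between -0.032 and 0.041 while the neutrophil markers run from -2.37 to 1.74.

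The proteins of the mitochondrial ribosome, which translate the few mRNAs of the mitochondrial genome, give a comparison of like function, chosen after the values were seen. Of 77 genes, 56 were lower on average in knockout cells (48 with median centring, 60 with quantile normalization), with a median of -0.09 and a range of -0.43 to 0.28. That is 72.7%, against 49.1% of all genes (62.3% against 39% with centring, 77.9% against 44.8% with quantile normalization). By limma 0 passed the adjusted test and 0 stood at an unadjusted p under 0.05, against 0% and 2.53% of all genes. Their median within-group SD was 0.206 and their median pairwise r 0.59, against 0.077 and 0.20 for the cytosolic set. The mitochondrial genes were also dimmer, with a median 6-array mean of 9.25 against 12.37. Over all genes with a mean of at least 9.02 the median SD was 0.205. The mitochondrial genes deviated by 0.012, 0.049 and 0.059 on wildtype replicates 1 to 3. On knockout replicates 1 to 3 they deviated by 0.181, -0.022 and -0.278. They were thus highest on knockout replicate 1 and lowest on knockout replicate 3, where the cytosolic set deviated by 0.031. The difference between the sets was not tested.

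Paralogs of ribosomal proteins, which can replace the standard protein in some tissues, were measured for 6 of 8 listed genes, and 0 passed. Rpl7l1 was at 10.46, 10.54 and 10.54 in wildtype and 10.64, 10.54 and 10.56 in knockout cells (difference 0.06, against 0.03 for Rpl7). Rps27l, a target of p53, was at 11.61, 11.40 and 11.28 against 11.73, 11.46 and 11.18 (0.03). Rpl3l and Rpl39l, known from muscle and testis, lay below every array median, at 5.32 to 5.60 and 4.78 to 4.89. Rpl10l and Rps4l had differences of 0.02 each, next to 0.05 for Rpl10 and 0.02 for Rps4x. Fau, the ribosomal protein outside the name rule, differed by 0.002.

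Another 17 listed genes, mostly translation factors, have mRNAs also known for a terminal oligopyrimidine tract. Of these 14 were measured, 6 with lower means (median 0.007). With limma 0 passed the adjusted test, and 1 stood at an unadjusted p under 0.05, against 2.53% of all genes. That gene was Nap1l1, a histone chaperone, at 10.25, 10.21 and 9.71 in wildtype and 9.63, 9.38 and 9.70 in knockout cells, with the knockout arrays below the wildtype ones (difference -0.49, adjusted p = 1.00). Without overlap and higher were Pabpc1, the poly(A)-binding protein, at 0.12, and the elongation factor genes Eef1a1 and Eef2, so that 4 of the 14 did not overlap (28.6%, against 7.15% of all genes). The initiation factor Eif3f had a difference of 0.16, with overlap. Of 25 measured initiation factors, 11 had lower means (median 0.006), and Eif4a2, an mRNA helicase, lay furthest by p at -0.23.

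In the pathway that controls translation of these mRNAs, 14 of 18 genes were measured, 7 lower and 7 higher (median -0.001, 0 passed). Rptor, the scaffold of mTORC1, was at 9.14, 9.17 and 9.43 in wildtype and 9.51, 9.72 and 9.47 in knockout cells, without overlap (difference 0.32, limma unadjusted p = 0.0347, adjusted p = 1.00). It was the only gene of the 14 without overlap, 7.14%, against 7.15% of all genes. Tsc2, an inhibitor of mTORC1, and Eif4ebp2, a translational repressor, had differences of 0.22 and 0.21, both with overlap. Mtor and Rps6kb2 had differences of -0.08 and -0.07. Larp1 had 2 rows of like brightness that lay on either side of 0, at -0.09 and 0.15. Among 12 chaperones and assembly factors of ribosomal proteins, 6 were lower and 6 higher, between -0.20 for Grwd1, a chaperone of Rpl3, and 0.10 for Nop53.

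Several ribosomal protein genes carry small nucleolar RNAs, which guide the modification of ribosomal RNA, in their introns. The gene table placed 39 small nucleolar RNAs within the 54 genes (strand not compared), and 12 of them, in 10 hosts, were measured. All 12 had lower means in knockout cells (-1.58 to -0.15, median -0.39, limma adjusted p = 1.00 for each), as did 49.1% of all genes. For 8 of them every knockout array lay below every wildtype array, against 3.51% of all genes. Their 10 hosts ran from -0.13 to 0.13 with a median of -0.03. These shares were not tested. Snora33 was at 9.24, 9.40 and 8.57 in wildtype and 7.84, 7.30 and 7.32 in knockout cells (-1.58), with its host Rps12 at -0.02, and Snora62 differed by -0.90, with its host Rpsa at 0.07.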

How the data were processed

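Total RNA of 6 samples was labelled with biotin and hybridised to Affymetrix Mouse Gene 1.0 ST arrays. The authors deposited log2 values per row; the base is taken as 2 from the range of the values, and how background was corrected and arrays were scaled is not given in the sources used here. Rows were named from the platform annotation: of 35511 rows with values, 21789 carried a single symbol, 1621 several and 12101 none. The row with the highest 6-array mean stood for a gene, and 19938 genes were fitted.

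Knockout was compared with wildtype with limma 3.58.1 (R 4.3.3; lmFit, eBayes), without a block, with Benjamini-Hochberg adjustment over all genes and a threshold of 0.05. The fit was tested on simulated data. Figures were drawn with matplotlib 3.10.9 (Python 3.11.15).

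The members, lists and tests were chosen with earlier results of these data known. Named were the 5 ribosomal protein genes with the smallest p in each direction, those with the highest and lowest mean, the 3 with the largest range, the stalk genes, Rpl5, Rps6, Rps19, Rps14 and Rpl22, measured paralogs, the 3 genes of smallest p in each other list and small nucleolar RNAs within member genes; names beyond this are examples chosen after their values were seen. The labels only number the replicates, so no pairing was used. Same-numbered samples had correlations of deviations of -0.26, -0.23 and 0.07, and samples of unlike number -0.17 to 0.34. With 3 arrays per group these correlations cannot show whether samples were paired. Alternatives covered scaling, a filter on dim rows, the choice of row, an intensity trend, array weights, a replicate block and leaving out each array.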

Additional observations from a re-analysis of the deposited data

How the results depend on the processing

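No ribosomal protein gene passed limma's adjusted test under any setting run, and at an unadjusted p under 0.05 stood 0 to 1 of them. The count over all genes was also 0, except without knockout replicate 2, where it was 3. The median difference was 0.010. It was -0.006 with quantile normalization, 0.041 with median centring, -0.002 with the mean of a gene's rows and -0.004 with array weights. Leaving out each array gave -0.016 to 0.027. The number of genes with lower means was 24; it was 32 with quantile normalization, 15 with median centring, 28 with mean rows and 31 with array weights, and 17 (without wildtype replicate 1) to 36 (without knockout replicate 3) with an array left out. With the replicate number as a block, 0 genes passed. The median of 0.010 and the 24 lower genes could not change under it, as each replicate number held an array of each genotype. Among settings added after seeing the data, the 16 single-row genes alone gave a median of -0.051 with 12 lower, and the dimmest row of each gene gave 0.001 with 26 lower. Of 221 alternatives for 17 named genes, 211 kept the direction. Many of these could not have turned it. The filter on dim rows, the intensity trend and the replicate block leave a gene's difference as it is. So does the mean of rows for a single-row gene. Rplp1 turned to 0.02 with median centring, 0.05 with array weights, 0.04 without wildtype replicate 1 and 0.02 without knockout replicate 3. Array weights turned Rps6 to -0.0086, Rpl5 to -0.0004 and Rps19 to -0.0004. With an array left out, Rplp1 ran from -0.05 to 0.04, Rpl5 from -0.01 to 0.09 and Rps19 from -0.03 to 0.1. Without knockout replicate 3, Rps6 was at -0.02 and Rpl5 at -0.01, and without wildtype replicate 3 Rps19 was at -0.03. Leaving out an array moved Rps3a1 between 0.08 and 0.19, Rpsa between 0.02 and 0.11, Rps14 between -0.12 and -0.01 and Rpl22 between -0.10 and -0.03. The cause of these changes was not tested.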
